A study of Homo sapiens with 12 samples.

Results

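Follistatin, the activin and TGF-beta ligands it belongs with, and their receptors and feedback genes were described in SNU308 cells after knockdown of CEACAM6. The group held 10 of the 60617 genes in the data and was FST, FSTL3, INHBA, INHBB, TGFB1, TGFB2, ACVR1B, TGFBR2, SMAD7 and ID1. FST was chosen by its rise with both siRNAs against CEACAM6 in these samples, so its difference from the control is given as a description, without a test. The other 9 genes were listed for their place in the pathway, with results of these data already known.

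SNU308 is a human gallbladder cancer cell line. Cells in all 3 groups received 25 nM siRNA and total RNA was taken at day 3, with 4 replicates per group. The control group (NTC) received a non-targeting siRNA, so that transfection was shared by all samples, and the other groups received siCEACAM6#2 or siCEACAM6#3. The genotype is given as wild type throughout. The submitters name Oligofectamine as the transfection reagent and strand-specific paired-end reads, while the study's methods name RNAiMAX and single-end reads. The model has limits: it is a single cell line and the knockdown was partial. The design text mentions individual experiments without saying which samples came from which, so p-values measure the spread between these samples, which may be technical. In bulk RNA, fewer cells of a type and less RNA per cell cannot be told apart.

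Activins and TGF-betas are secreted dimers that bring together type II and type I receptor kinases on the cell surface. The activated receptors phosphorylate SMAD2 and SMAD3, which join SMAD4 and enter the nucleus, whereas the related BMPs act through SMAD1 and SMAD5. Follistatin binds activins outside the cell and keeps them from their receptors, and inhibitory SMADs such as SMAD7 limit the signal from within. In epithelia the pathway is known for restraining growth and for roles in matrix production and migration.

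The 2 siRNAs are shown by their designed target sites in CEACAM6, since every comparison rests on them. Both 21-base sites lie on the plus strand in the annotated 3' UTR of CEACAM6 (GRCh38). The site of siCEACAM6#2 is at chr19:41771369-41771389 and that of siCEACAM6#3 at chr19:41771611-41771631. Capitals mark the 7 bases that pair with positions 2 to 8 of the guide strand, counted from its 5′ end, which is the stretch through which a siRNA can also pair with other transcripts.
siCEACAM6#2: cagccatgcaatgCCAAATAa
siCEACAM6#3: ctcctaatagtcaTACTAGTa
The 3' UTR of FST, of 1101 bases, holds neither of these 7-base matches. The siCEACAM6#2 match occurs in the 3' UTRs of INHBA, TGFB2 and TGFBR2 (3 of 10 genes), and that of siCEACAM6#3 in those of TGFB2 and ID1 (2 of 10). Among the 13750 tested genes with an annotated 3' UTR, which leave out INHBA, 15.6% hold the first match and 6.63% the second. A match is a stretch of letters, and whether the siRNAs act on these transcripts was not tested.

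The libraries were of like depth, with total estimated counts of 21799476 to 22059456 per sample. Of the 17620 genes with enough counts for the test, 221 (1.25%) differed between siCEACAM6#2 and NTC, 12 (0.0681%) between siCEACAM6#3 and NTC, and 259 (1.47%) between the siRNAs, at a Benjamini-Hochberg adjusted p from limma-voom under 0.05. All 6 epithelial markers were high, with a summed level of 7748 to 8817 TPM (a transcript level scaled for gene length and library depth). Of the biliary markers, SOX9 was present at a mean of 10.1 TPM while SOX17 was near 0, at 0.0130 TPM. siCEACAM6#3 replicate 1 stood apart from replicates 2 and 4 of its group, with a chi-square per gene of 23.5 and 19.96 against 2.72 to 13.3 for every other pair within a group. It did not stand apart from replicate 3, at 8.34. No pair of replicates was close enough to be the same library.

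CEACAM6, an adhesion molecule of the carcinoembryonic antigen family and the target of both siRNAs, was lower in every knockdown sample than in every NTC sample. Its CPM, the count scaled by the adjusted library size, was 524, 569, 596 and 619 in NTC replicates 1 to 4. With siCEACAM6#2 it was 353, 343, 286 and 329, and with siCEACAM6#3 it was 423, 386, 424 and 438. The mean was thus 56.8% of that in NTC with siCEACAM6#2 and 72.5% with siCEACAM6#3. The 3 groups did not overlap. The log2 fold changes of CEACAM6 in limma-voom were -0.82 (adjusted p = 2.71e-05) and -0.46 (adjusted p = 0.0151). The difference between the siRNAs was 0.35 (adjusted p = 0.016). It was not called in both fits of log2 TPM (0.33 in each), with only the 2 groups fitted (0.36), or without replicate 3 of siCEACAM6#2 (0.29) or of siCEACAM6#3 (0.35), with adjusted p between 0.0564 and 0.0696. The call for siCEACAM6#3 did not survive leaving out NTC replicate 2, 3 or 4, or replicate 3 of siCEACAM6#3, with adjusted p between 0.0561 and 0.0792.

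FST encodes follistatin, the secreted antagonist of activins (ENSG00000134363, GRCh38 chr5:53480626-53487134, plus strand). In NTC replicates 1 to 4 it had 71.7, 76.9, 100.2 and 105 CPM. With siCEACAM6#2 it had 122, 152, 162 and 133 CPM, and with siCEACAM6#3 it had 134, 148, 154 and 145 CPM. Each of the 8 knockdown samples was thus above each NTC sample, and the siRNA groups overlapped one another. The group means were 88.6 ± 16.8 CPM for NTC, 142 ± 17.8 for siCEACAM6#2 and 145 ± 8.53 for siCEACAM6#3 (SD, n = 4). The fitted fold was 1.62 with siCEACAM6#2 (95% interval 1.38 to 1.91) and 1.66 with siCEACAM6#3 (1.41 to 1.95). Both folds use the same NTC samples, and both are the values that chose the gene.

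Those NTC samples spread most, with a coefficient of variation of 18.9% against 12.5% and 5.88% with the siRNAs. Counting error alone gave 1.78% to 2.26% per library, so the depth did not limit the FST values. The log2 fold change stayed between 0.60 and 0.79 for siCEACAM6#2 and between 0.64 and 0.82 for siCEACAM6#3 when each sample was left out in turn. Without siCEACAM6#3 replicate 1, the library that stood apart, it was 0.78 for siCEACAM6#3. On log2 TPM with a pseudocount of 1 it was 0.64 with each siRNA. In the fits of log2 TPM, FST did not reach the threshold behind its choice with either siRNA. For siCEACAM6#3 it also did not without NTC replicate 1, NTC replicate 2 or siCEACAM6#3 replicate 3, at log2 fold changes of 0.64, 0.67 and 0.70.

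For FST, no difference between the siRNAs passed the test. The log2 difference of siCEACAM6#3 from siCEACAM6#2 was 0.033 (95% interval -0.20 to 0.26, adjusted p = 0.935 in limma-voom). The choice of a gene that rose with both siRNAs favours a small difference here. Within groups, the Pearson r of FST and CEACAM6 was 0.115, over the 12 samples after subtraction of the group means. Fibroblast markers were low, with 5 of 6 at a mean under 1 TPM and DCN and LUM at 0.329 and 0.0313 TPM. The sum of the 6 ran from 2.84 to 3.52 TPM for NTC, from 3.60 to 3.98 for siCEACAM6#2 and from 3.24 to 4.99 for siCEACAM6#3, and its part in the FST values was not tested.

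**Figure D1:**
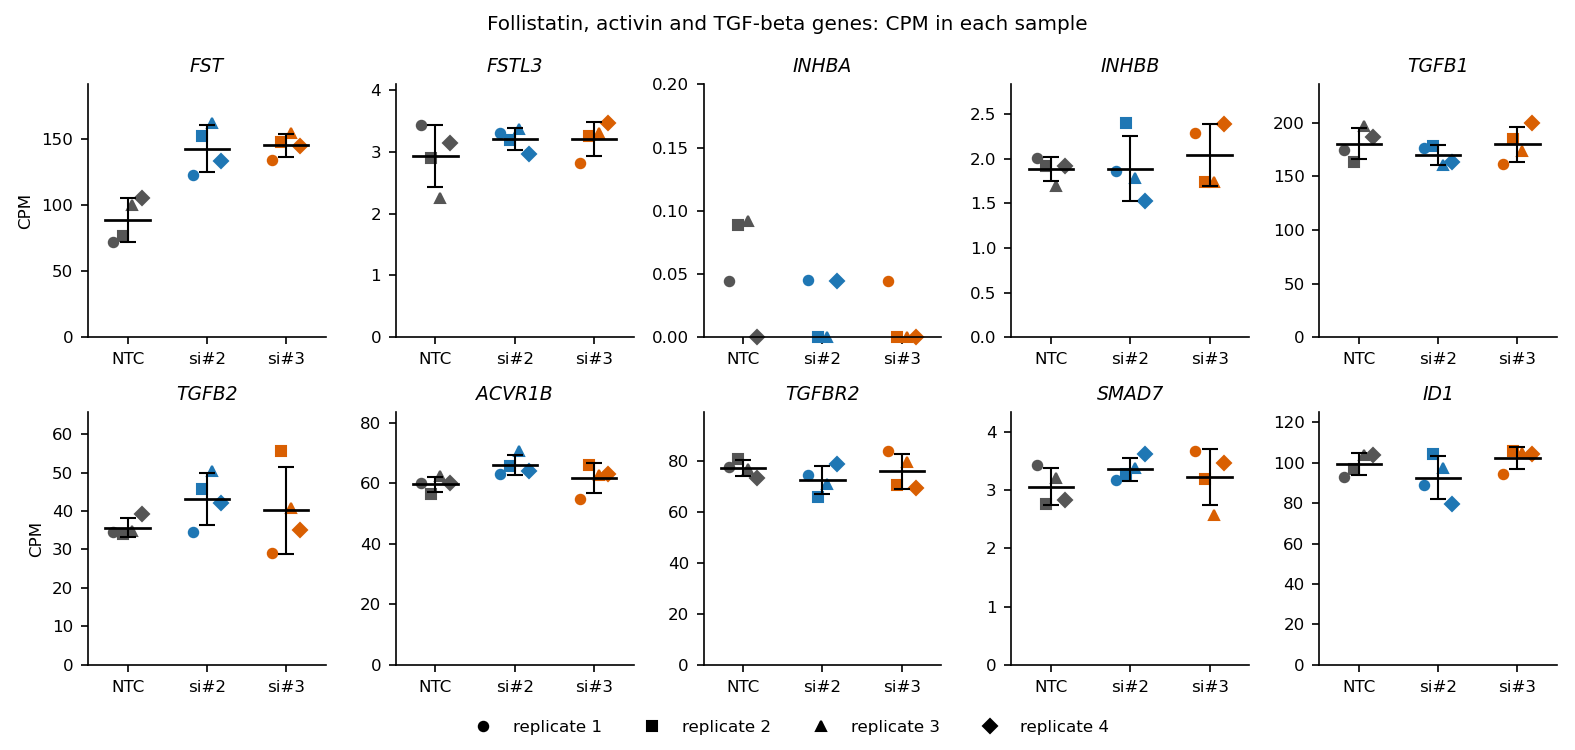
CPM of the 10 genes (vertical axes, each from 0) in each of 4 replicates of NTC, siCEACAM6#2 (si#2) and siCEACAM6#3 (si#3), with symbols for replicates and bars for the mean and SD, which are left out for INHBA because it is at 0 in 6 samples. FST lies between 71.7 and 105 CPM in NTC and between 122 and 162 CPM in the knockdown samples, while the groups overlap for the other genes, except ACVR1B between NTC and siCEACAM6#2.

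FSTL3, a secreted relative of follistatin that also binds activins, was a minor transcript beside FST. It had 3.44, 2.89, 2.25 and 3.15 CPM in NTC, 3.31, 3.18, 3.37 and 2.96 with siCEACAM6#2, and 2.83, 3.25, 3.30 and 3.46 with siCEACAM6#3. The groups overlapped. The log2 fold change was 0.14 with each siRNA, with 95% intervals of -0.16 to 0.44 and adjusted p of 0.733 and 0.722 in limma-voom. A rise of FSTL3 of the size of that of FST lies outside both intervals, since the fitted fold of FSTL3 was at most 1.36 at its upper bounds. FST made up 93.5% to 97.6% of the summed TPM of both antagonists across the samples.

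The activin subunit genes were at or near the detection limit. INHBA encodes the beta A subunit, which forms activin A, the best known ligand of follistatin. It had 1, 2, 2 and 0 counts in NTC, 1, 0, 0 and 1 with siCEACAM6#2, and 1, 0, 0 and 0 with siCEACAM6#3. Its 8 counts over 12 samples compare with 32926 for FST. A count of 3 in a library corresponds to 0.136 to 0.138 CPM, and INHBA stayed under this limit in every sample. It was therefore not tested, and no difference was detectable at this depth. INHBB, which encodes the beta B subunit of activin B, was low and detected in every sample, with 34 to 52 counts. Its CPM was 2.01, 1.91, 1.70 and 1.92 in NTC, 1.86, 2.40, 1.78 and 1.52 with siCEACAM6#2, and 2.29, 1.74, 1.74 and 2.39 with siCEACAM6#3. The NTC values lay within the range of the knockdown values. The log2 fold changes of INHBB were -0.015 (95% interval -0.39 to 0.36, adjusted p = 0.984) and 0.10 (-0.27 to 0.47, adjusted p = 0.849 in limma-voom). Counting error of about 15% per library was close to the spread between replicates of INHBB, 7.01% to 19.5%, so small differences could not be seen. The 5 genes for activin and inhibin subunits (INHBA, INHBB, INHA, INHBC and INHBE) summed to 1.40 to 2.13 TPM per sample, beside 46.9 to 104 TPM for FST.

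Of the TGF-beta ligands, TGFB1 was well expressed and TGFB2 less so. TGFB1 had 175, 164, 197 and 187 CPM in NTC, 177, 179, 160.3 and 163 with siCEACAM6#2, and 162, 185, 174 and 199.8 with siCEACAM6#3. All groups overlapped. The log2 fold changes of TGFB1 were -0.086 (95% interval -0.23 to 0.062, adjusted p = 0.652) and -0.0046 (-0.15 to 0.14, adjusted p = 0.988 in limma-voom), which leaves room for a difference of at most 0.850 to 1.10-fold. TGFB2 had 34.6, 34.0, 34.9 and 39.3 CPM in NTC, 34.6, 45.7, 50.5 and 42.1 with siCEACAM6#2, and 29.2, 55.6, 40.8 and 35.1 with siCEACAM6#3. Its highest and lowest values of all 12 samples were both in the siCEACAM6#3 group, the lowest in replicate 1. The log2 fold changes of TGFB2 were 0.26 (-0.054 to 0.58, adjusted p = 0.478) and 0.13 (-0.19 to 0.45, adjusted p = 0.768 in limma-voom). Without siCEACAM6#3 replicate 1 the latter value was 0.28 (adjusted p = 0.278). Among the 10 genes, TGFB2 had the widest spread of those with over 100 counts, at 28.3% with siCEACAM6#3.

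Neither receptor among the 10 genes passed the test. ACVR1B encodes the type I receptor of activins. It had 59.9, 56.3, 62.3 and 60.2 CPM in NTC, 63.1, 65.8, 70.7 and 64.1 with siCEACAM6#2, and 54.8, 66.1, 62.8 and 63.1 with siCEACAM6#3. All 4 siCEACAM6#2 samples were above all 4 NTC samples, as was the case in one direction or the other for 10.8% of the tested genes. The log2 fold change with siCEACAM6#2 was 0.14 (95% interval 0.012 to 0.28) and did not pass the test (adjusted p = 0.318 in limma-voom). With siCEACAM6#3 it was 0.046 (-0.087 to 0.18, adjusted p = 0.806), and 0.11 without its replicate 1 (adjusted p = 0.326). TGFBR2, the type II receptor of the TGF-betas, had 77.7, 80.9, 76.9 and 73.3 CPM in NTC, 74.5, 66.0, 71.1 and 78.8 with siCEACAM6#2, and 84.0, 70.7, 79.4 and 69.5 with siCEACAM6#3. Its groups overlapped, with log2 fold changes of -0.091 (-0.24 to 0.055, adjusted p = 0.623) and -0.028 (-0.17 to 0.12, adjusted p = 0.900 in limma-voom). The latter was -0.072 without siCEACAM6#3 replicate 1.

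SMAD7 and ID1 are transcripts that SMADs induce, SMAD7 as an inhibitor that acts back on the receptors and ID1 as a target of BMP signalling that blocks basic helix-loop-helix factors. SMAD7 was low, at 3.44, 2.76, 3.21 and 2.83 CPM in NTC, 3.17, 3.28, 3.37 and 3.63 with siCEACAM6#2, and 3.68, 3.20, 2.57 and 3.46 with siCEACAM6#3. The log2 fold changes of SMAD7 were 0.14 (95% interval -0.15 to 0.43, adjusted p = 0.725) and 0.070 (-0.22 to 0.36, adjusted p = 0.870 in limma-voom). The groups overlapped, and counting error of about 12% per library limited the precision. ID1 was the most abundant of the 10 genes per length. It had 92.7, 97.0, 104 and 104 CPM in NTC, 89.1, 104, 97.4 and 79.8 with siCEACAM6#2, and 94.3, 106, 105 and 104 with siCEACAM6#3. The log2 fold changes of ID1 were -0.11 (-0.26 to 0.050, adjusted p = 0.583) and 0.042 (-0.11 to 0.20, adjusted p = 0.852 in limma-voom). The latter was 0.087 without siCEACAM6#3 replicate 1.

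Of the 10 genes, 9 passed the filter on low counts, and all 8 of these other than FST missed the threshold with each siRNA in limma-voom, edgeR and DESeq2. Of the 8, ACVR1B alone had an unadjusted p under 0.05, with siCEACAM6#2. Of all 17620 tested genes, 2400 had this with siCEACAM6#2 and 2199 with siCEACAM6#3. FST was the 1 of 9 called with each siRNA, which the choice of the gene fixes, where 0.613% of all tested genes were called higher with siCEACAM6#2 and 0.0511% with siCEACAM6#3. None of the 9 was called between the siRNAs (0 of 9 in limma-voom, against 1.47% of all tested genes). None had an unadjusted p under 0.05 in that comparison, against 2346 of all 17620 tested genes. Without FST, the median log2 fold change of the other 8 genes was 0.062 with siCEACAM6#2 and 0.058 with siCEACAM6#3, beside 0.00017 and -0.0032 over all tested genes. Without FST, groups did not overlap for 1 of 8 genes with siCEACAM6#2, which was ACVR1B (10.8% of all genes), for 0 of 8 with siCEACAM6#3 (6.27%) and for 0 of 8 between the siRNAs (6.68%).

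**Figure D2:**
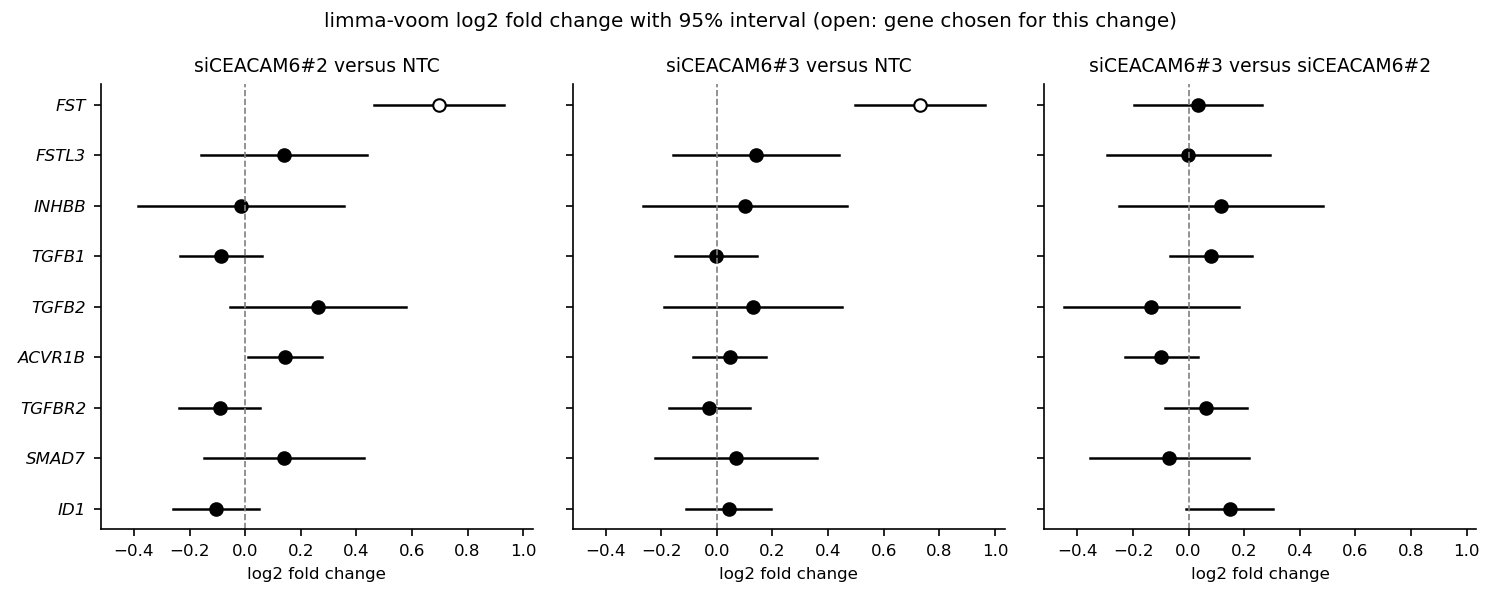
limma-voom log2 fold changes (horizontal axes) of the 9 tested genes in each of the 3 comparisons, with lines for 95% intervals and open points for the 2 values that chose FST. The intervals of FST versus NTC lie above 0.46, that of ACVR1B with siCEACAM6#2 starts at 0.012, and every other interval includes 0.

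Measured per length, the 10 genes spanned several orders of magnitude. The mean over 12 samples was 149.7 TPM for ID1, 86.4 for TGFB1 and 81.0 for FST, which placed these genes above 95.7%, 92.1% and 91.6% of the tested genes. TGFBR2 and ACVR1B followed at 24.0 and 18.9 TPM, and TGFB2 at 10.96 TPM. FSTL3, SMAD7 and INHBB were low at 2.56, 1.31 and 0.789 TPM, and INHBA lay at 0.0174 TPM. Between neighbours in this order, the ranges over the 12 samples overlapped for TGFB1 and FST, for TGFBR2 and ACVR1B and for FSTL3 and SMAD7, so that these pairs could not be ordered beyond their spread. The place of FST moved with the group, since its mean TPM was 59.3 ± 10.7 for NTC, 92.1 ± 11.7 for siCEACAM6#2 and 91.6 ± 2.61 for siCEACAM6#3 (SD, n = 4). For FST, TGFB1, TGFB2, ACVR1B, TGFBR2 and ID1 the spread between replicates, 4.02% to 28.3% of the mean CPM, was larger than the counting error of 1.58% to 3.56%.

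**Figure D3:**
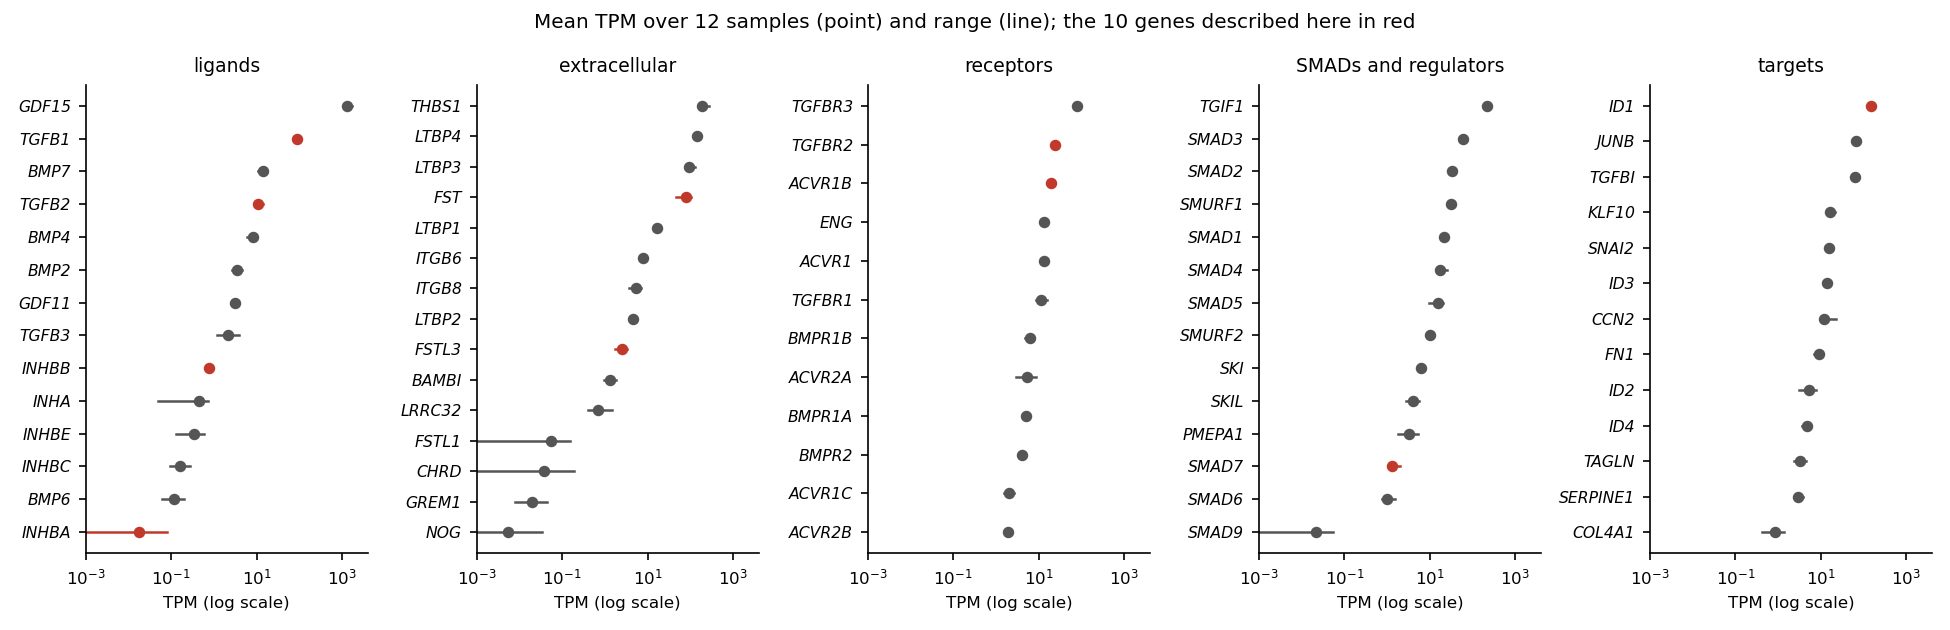
Mean TPM over 12 samples (points, log axis) with the range from the lowest to the highest sample (lines) for the 10 genes in red and for 58 further pathway genes in grey, by role, where lines that reach the left edge include samples at 0. FST, at 81.0 TPM, is the most abundant antagonist shown, and the activin subunit genes INHBB and INHBA lie at 0.789 and 0.0174 TPM.

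To place these genes in their pathway, 59 further genes were described by role, from a list drawn up with earlier results of these data known. Of these, 53 passed the filter, and BMP6, FSTL1, CHRD, SMAD9, GREM1 and NOG did not. The count of genes called higher was 1 of 53 with siCEACAM6#2 and 1 of 53 with siCEACAM6#3, beside 0.613% and 0.0511% of all tested genes called higher. TGFBR1 and TGFBR3 were called between the siRNAs, both higher with siCEACAM6#3 (2 of 53, beside 0.84% of all tested genes). None of the 53 was called lower in any comparison in limma-voom, beside 0.641%, 0.017% and 0.63% of all tested genes. Unadjusted p under 0.05 was reached by 4, 2 and 3 of the 18, 14 and 22 lower genes, edgeR called 0, and DESeq2 called TGFBR1 lower with siCEACAM6#2. In both directions together, 2400, 2199 and 2346 of all 17620 tested genes had an unadjusted p under 0.05. The log2 fold change was above 0 for 35 of 53 genes with siCEACAM6#2 and for 39 of 53 with siCEACAM6#3, beside 50.1% and 48.9% of all tested genes. Between the siRNAs it was above 0 for 31 of 53, beside 48.8%. The medians were 0.038, 0.095 and 0.047. Both comparisons share the NTC samples.

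Of the targets of the pathway, 13 were tested, and 1 of these was called higher with each siRNA in limma-voom and is not described here. JUNB and TGFBI, which were not called in limma-voom, are described for their high mean level. JUNB, a transcription factor gene that TGF-beta induces early, had a mean of 83.3 ± 5.89 CPM in NTC and 97.3 ± 7.78 with siCEACAM6#2 (log2 fold change 0.22, adjusted p = 0.122), and 91.4 ± 5.14 with siCEACAM6#3 (0.14, adjusted p = 0.419 in limma-voom). TGFBI, a matrix protein gene named for its induction by TGF-beta, had 123 ± 3.53 CPM for NTC, 113 ± 9.30 for siCEACAM6#2 and 135 ± 14.8 for siCEACAM6#3 (SD, n = 4), with adjusted p of 0.493 and 0.507 in limma-voom. Over the 13 targets the median log2 fold change was 0.038 for siCEACAM6#2 and 0.030 for siCEACAM6#3. DESeq2 also called JUNB with siCEACAM6#2, and TGFBI between the siRNAs.

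The receptor genes held the differences between the siRNAs. TGFBR1, the type I receptor of the TGF-betas, had 45.6, 49.4, 42.9 and 43.1 CPM in NTC, 38.0, 35.8, 37.2 and 41.9 with siCEACAM6#2, and 52.5, 48.6, 48.7 and 43.5 with siCEACAM6#3. The siRNA groups did not overlap, and the mean of NTC, 45.3 CPM, lay between their means of 38.2 and 48.3 CPM, while its samples overlapped those of siCEACAM6#3. The log2 difference of siCEACAM6#3 from siCEACAM6#2 was 0.34 (95% interval 0.19 to 0.49, adjusted p = 0.0247 in limma-voom). Neither siRNA passed the test against NTC, at -0.24 (adjusted p = 0.114) and 0.094 (adjusted p = 0.606). TGFBR3, the co-receptor betaglycan, had 366, 356, 338 and 344 CPM in NTC, 287, 308, 331 and 346 with siCEACAM6#2, and 367, 421, 401 and 359.9 with siCEACAM6#3. Its difference between the siRNAs was 0.28 (0.15 to 0.42, adjusted p = 0.0334 in limma-voom), with -0.15 (adjusted p = 0.320) and 0.14 (adjusted p = 0.386) against NTC. The 3' UTR of TGFBR1 holds 2 of the siCEACAM6#2 7-base matches and that of TGFBR3 holds 1, and neither holds the match of siCEACAM6#3. Matches of siCEACAM6#2 were also present in the receptor genes ACVR2A, ACVR2B and TGFBR2, which were not called. Their log2 fold changes with siCEACAM6#2 versus NTC were -0.045, 0.12 and -0.091. Of the 59 genes of the list, tested or not, 18 held this match, beside 15.6% of the tested genes with an annotated 3' UTR. FSTL1, GREM1 and SMAD9 are among those that held it and were not tested. The length of the 3' UTR, which reached 32870 bases in the list, was not allowed for, so these shares are not directly comparable. The part of these matches in the receptor values was not tested.

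The differences of TGFBR1 and TGFBR3 did not hold in all fits. Without siCEACAM6#3 replicate 1 both held, at 0.30 (adjusted p = 0.0273) and 0.31 (adjusted p = 0.0156 in limma-voom). Both were lost with library size alone as the scaling (0.32 and 0.26), on log2 TPM with a pseudocount of 1 (0.38 and 0.29) and when only the 2 groups were fitted (0.34 and 0.28). That of TGFBR1 was also lost on leaving out replicate 1, 2 or 3 of siCEACAM6#2 or replicate 3 of siCEACAM6#3, with adjusted p of 0.0625 to 0.0802. That of TGFBR3 was lost on leaving out NTC replicate 4, replicate 1, 2 or 3 of siCEACAM6#2, or replicate 2 or 3 of siCEACAM6#3, with adjusted p of 0.0504 to 0.114. Endothelial markers, with VWF, CDH5 and PECAM1 at means of 1.49, 0.590 and 0.131 TPM, summed to between 2.12 and 2.72 TPM for NTC, between 1.57 and 2.03 for siCEACAM6#2 and between 2.09 and 2.91 for siCEACAM6#3. CDH5 was higher with siCEACAM6#3 than with siCEACAM6#2 (log2 difference 1.31, adjusted p = 0.016), and VWF was lower with siCEACAM6#2 than in NTC (-0.44, adjusted p = 0.0419 in limma-voom). PECAM1 had log2 fold changes of 0.61 and 1.03 versus NTC (adjusted p = 0.462 and 0.214). The mitochondrial share of counts was 14.3% to 15.3% in siCEACAM6#3 replicates 2 to 4 and 11.8% to 13.3% in all other samples. The part of these markers and of this share in the receptor values was not tested. The other 8 receptor genes tested were not called in any comparison, where 1.25%, 0.0681% and 1.47% of all tested genes were. Unadjusted p under 0.05 was reached by 3, 2 and 2 of the 10 receptor genes of the list, beside 2400, 2199 and 2346 of all 17620. Of the 8, ACVR1C alone reached it, with both siRNAs. Its log2 fold changes were 0.34 and 0.33 (adjusted p = 0.151 and 0.245 in limma-voom). Its siCEACAM6#2 and NTC samples did not overlap (10.8% of tested genes). ENG, the co-receptor endoglin, was at 19.9 ± 1.97, 20.1 ± 1.63 and 21.3 ± 2.16 CPM in the 3 groups.

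**Figure D4:**
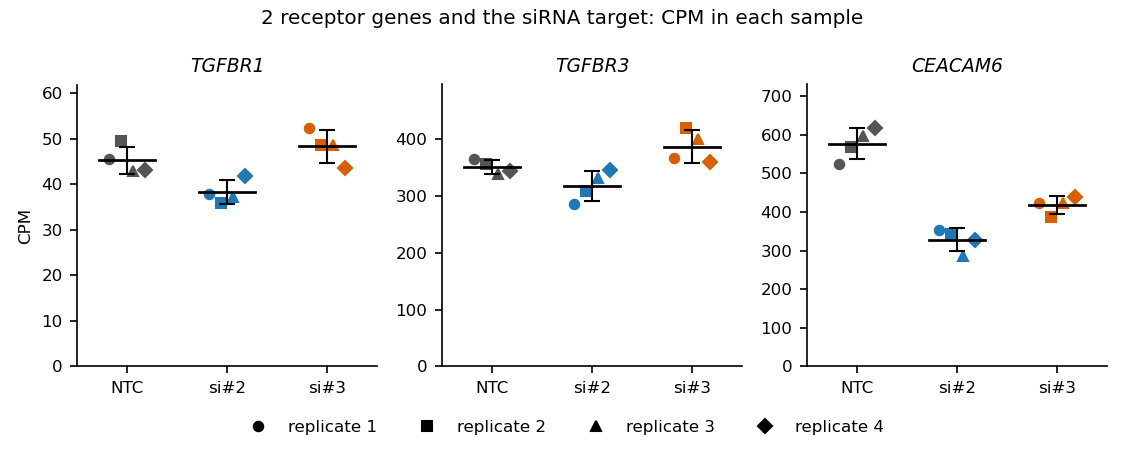
CPM (vertical axes from 0) of TGFBR1, TGFBR3 and CEACAM6 in each of 4 replicates of NTC, siCEACAM6#2 (si#2) and siCEACAM6#3 (si#3), with bars for the mean and SD. TGFBR1 and TGFBR3 are separated between the siRNAs, and CEACAM6 is separated between all 3 groups.

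Ligands, extracellular regulators and SMADs held no called gene in any of the 3 comparisons (0 of 9, 0 of 9 and 0 of 12 tested in limma-voom). Over all tested genes, 1.25%, 0.0681% and 1.47% were called, so counts of 0 in such small lists are near that share. Unadjusted p under 0.05 was reached in the 3 comparisons by 2, 3 and 2 ligands, by 2, 4 and 5 extracellular regulators and by 4, 1 and 2 SMADs or their regulators. Of all 17620 tested genes, 2400, 2199 and 2346 reached it. edgeR called none of these genes, and DESeq2 called BMP2 with siCEACAM6#2, and ITGB6 with siCEACAM6#3 versus NTC and between the siRNAs. GDF15, a stress-induced ligand of the superfamily and the most abundant of the ligands at 1269.7 TPM, had 940.4 ± 79.6 CPM for NTC, 969 ± 123 for siCEACAM6#2 and 1189 ± 232 for siCEACAM6#3 (adjusted p = 0.933 and 0.285 in limma-voom). BMP7 was at 18.7 ± 0.768, 16.4 ± 1.67 and 18.1 ± 2.88 CPM (adjusted p = 0.439 and 0.840). THBS1, a matrix protein that can activate latent TGF-beta, and LTBP4, which binds latent TGF-beta, were the leading extracellular genes. Their log2 fold changes were 0.14 and 0.24 with siCEACAM6#2 (adjusted p = 0.649 and 0.234) and 0.19 and 0.12 with siCEACAM6#3 (adjusted p = 0.493 and 0.620). TGIF1, a repressor that binds SMADs, had log2 fold changes of 0.17 and 0.14 (adjusted p = 0.303 and 0.456), and SMAD3 had 0.038 and 0.15 (adjusted p = 0.907 and 0.493).

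**Figure D5:**
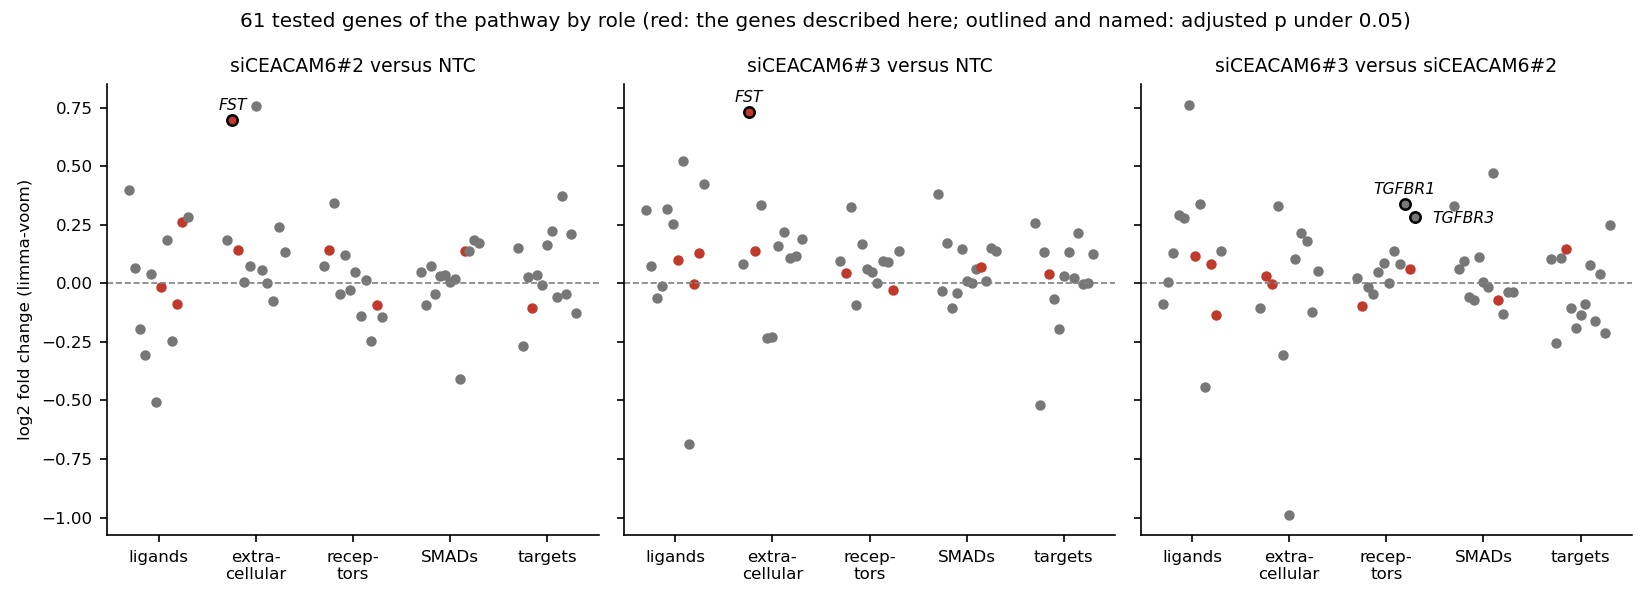
limma-voom log2 fold changes (vertical axis) of 61 tested genes of the pathway in each of the 3 comparisons, by role, with red points for the 9 tested genes of the group around FST, grey points for 52 others, and an outline and a name for genes with an adjusted p under 0.05. FST is named with each siRNA versus NTC, which the choice of the gene fixes and which is not a test. TGFBR1 and TGFBR3 are named between the siRNAs.

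Lastly, genes were ranked by how closely their log2 CPM followed that of FST over the 12 samples, among 15018 genes with a mean of at least 1 CPM. Among the 5 with the highest Pearson r were SERPINB2 (0.967), ASB2 (0.945), AFAP1 (0.936) and ITGA5 (0.930). SERPINB2 encodes an inhibitor of plasminogen activators, ASB2 a substrate receptor of a ubiquitin ligase, AFAP1 an actin filament protein and ITGA5 the integrin subunit that pairs with ITGB1 to bind fibronectin. After subtraction of the group means r was still 0.860, 0.806, 0.834 and 0.795, so the likeness was also present among replicates of a group. The samples share libraries and group differences, and the genes were ranked by this measure, so r is a description. Their mean CPM in NTC, siCEACAM6#2 and siCEACAM6#3 was 47.9, 83.4 and 82.1 for SERPINB2 and 85.4, 102 and 104 for ASB2. It was 14.2, 17.5 and 18.0 for AFAP1 and 25.6, 29.6 and 29.7 for ITGA5.

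Among the 10 genes themselves, ID1 and ACVR1B followed FST most closely within groups, with r of 0.698 and 0.585 after subtraction of the group means, then TGFB2 at 0.519 and TGFB1 at 0.390. TGFBR2 went the other way at -0.477. INHBB, FSTL3 and SMAD7, the genes with few counts, lay between -0.287 and -0.126. These values are descriptions over 12 samples.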

How the data were processed

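RNA-seq of 12 SNU308 samples was used, 4 each of NTC, siCEACAM6#2 and siCEACAM6#3, grouped by their labels. Per the labels' processing notes, the submitters used Trim Galore 0.6.4, kallisto 0.4.6, limma and the build GRCh38.p13; the study's methods give a longer kallisto version number, and how transcripts were summed to genes is not given in the sources used here. The authors deposited estimated counts per gene (kallisto's fractional counts, not scaled to depth) and TPM per gene, which summed to 999794 to 999818 per sample. Of the estimated counts above 0, 68.8% were not whole (tolerance 1e-06). Kallisto divides reads among similar transcripts, so values of near-identical genes are uncertain.

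Rounded counts entered limma 3.58.1 voom after filtering (filterByExpr) and TMM scaling in edgeR 4.0.16, under R 4.3.3, in a single model with a mean for each group and no covariates. The filter left 17620 genes with 99.9% of the counts. A gene was called at a Benjamini-Hochberg adjusted p under 0.05 over these genes, two-sided, within each of 3 contrasts. CPM used TMM-scaled library sizes. Likeness to FST was Pearson's r of log2 CPM with a prior count of 2. Symbols matched 60357 of 60617 identifiers, and coordinates and 3' UTRs came from GENCODE release 44 (GRCh38). siRNA target sequences came from the study's siRNA list, and the guide was taken as the reverse complement. The 7-base matches were searched on the transcript strand.

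The members and lists were chosen with earlier results of these data known. Besides the 10 members and CEACAM6, genes were named when called in the pathway list, among the 2 with the highest mean TPM of their role, or among the 5 most like FST (also BMP2, ITGB6, ACVR1C, ACVR2A, ACVR2B and single markers where a list is described, chosen after their values were seen). A planned ratio of FST to INHBA was not computed because INHBA is at 0 in 6 of 12 samples. Alternatives were other scaling, no expression filter, edgeR quasi-likelihood, DESeq2 1.42.0, sample weights, log2 TPM with pseudocounts of 1 and 0.1, the replicate number as a block, 2 groups only, and leaving out each of 12 samples. The procedure was tested on simulated data. No column of the authors' own comparisons was used. Total counts of 21799476 to 22059456 per sample set the precision, and intervals and floors cover counting error only where stated. Some genes that the rules would name are not reported here.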

Additional observations from a re-analysis of the deposited data

Results flagged for a closer look

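Among 36 sets of 4 replicates checked for a sample that stands apart from the rest, 2 held one, by a gap to the nearest sample of more than 0.829 of the whole range. Chance alone gives about 1 in 20 such sets. TGFB2 was at 39.3 CPM in NTC replicate 4, where the others were at 34.0 to 34.9. ID1 was at 94.3 CPM in siCEACAM6#3 replicate 1, where the others were at 104 to 106.

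Among the 10 genes, the pathway genes named as called and CEACAM6, the effects of the 2 siRNAs differed in limma-voom for 3. Cell type markers such as CDH5, described above, were not part of this check. The log2 difference of siCEACAM6#3 from siCEACAM6#2 was 0.34 for TGFBR1 (adjusted p = 0.0247), 0.28 for TGFBR3 (adjusted p = 0.0334) and 0.35 for CEACAM6 (adjusted p = 0.016). Each of these calls was lost in some fits, that of CEACAM6 in 3 of 10 alternatives and in 2 of 12 fits that left out a sample. All 3 were higher in every siCEACAM6#3 sample than in every siCEACAM6#2 sample, and groups did not overlap for 6.68% of the tested genes in that comparison.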

How the results depend on the processing

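For the 8 tested members other than FST, 0 of 528 values under the alternatives were called, with a lowest adjusted p of 0.0982. These values come from refits of the same samples and are not independent. In the limma-voom fit of all samples, 1.25%, 0.0681% and 1.47% of all tested genes were called in the 3 comparisons. A count of 0 among 8 genes is near that share. The log2 fold change of FST versus NTC kept its sign in all 22 alternatives. These reuse the samples whose values chose the gene, so the kept sign is a description. Counts over all genes moved more. The 221 genes called for siCEACAM6#2 versus NTC became 534 with DESeq2, 1120 with sample weights, 5 and 6 on log2 TPM with pseudocounts of 1 and 0.1, and 600 with the 2 groups only. The 12 called for siCEACAM6#3 versus NTC became 24 without the expression filter, 220 with DESeq2, 382 with sample weights, and 4 in each fit of log2 TPM. The 259 called between the siRNAs became 556 with DESeq2, 560 with sample weights, 49 and 53 on log2 TPM, and 57 with the 2 groups only. The cause of these shifts was not tested.

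Leaving out each sample in turn gave 49 to 364, 2 to 258 and 83 to 651 called genes in these 3 comparisons. The lowest were without siCEACAM6#2 replicate 3, siCEACAM6#3 replicate 3 and siCEACAM6#2 replicate 3, and the highest without siCEACAM6#3 replicate 4, replicate 1 and replicate 1. With library size alone as the scaling, the split between the siRNAs was 112 higher and 121 lower, beside 148 and 111.

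The replicate number was not shown to pair the samples: of 12 same-numbered pairs the correlations of deviations ran from -0.0602 to 0.224, with 2 over 0.1. The highest was that of replicate 1 of siCEACAM6#2 with replicate 1 of siCEACAM6#3, and the check does not settle whether some samples were paired. With the replicate block, 284, 87 and 349 genes were called, beside 221, 12 and 259 without it. TGFBR1 versus NTC passed the threshold with siCEACAM6#2 under DESeq2, sample weights and 2 groups only, at -0.24, -0.23 and -0.24. Depth limits INHBA, INHBB, FSTL3 and SMAD7 most, at 0 to 82 counts per sample.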
